A study of Danio rerio with 186 samples.

Results

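Cells sorted as positive for both sst1.1 and ins were compared with cells sorted as ins+ on the same plate, plate 3 of a zebrafish pancreas experiment. The comparison holds 89 kept cells of the 174 kept in the series (186 deposited). They are 57 sst1.1+ ins+ cells of 60 deposited and 32 ins+ cells of 33 deposited. Membership came from the gate and the plate number in the cell titles, and a cell was kept with at least 500 detected genes and 50000 reads outside spike-in RNAs. All cells, in every gate, came from fish at 30 days post fertilization that carried Tg(ins:BB1.0L), driven by the insulin promoter, together with TgBAC(sst1.1:memEGFP), in which sst1.1 regulatory sequence drives EGFP. The fish received no treatment that the labels name. Single cells from enzyme-dissociated pancreas were sorted into wells and sequenced with Smart-Seq2, which covers full-length transcripts and uses no molecular identifiers. The other gates on plate 4, 24 kept ins+ cells and 61 kept sst1.1+ cells, are used here for reference values.

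Insulin is made by beta cells of the pancreatic islet, and somatostatin by delta cells, which restrain the secretion of insulin and glucagon through paracrine signals. Both hormones are made as precursors, cut by proprotein convertases and stored in dense-core granules that fuse with the membrane when the cell is stimulated. Zebrafish have several somatostatin genes, of which sst1.1 and sst1.2 are close relatives, so reads of this pair can be hard to assign.

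Summed reads outside spike-in RNAs came to 27382339 in the sst1.1+ ins+ pool and 13530311 in the ins+ pool, with a median of 484520 and 422832 reads per cell. The labels name no animals, so the cells of a gate on a plate are 1 pool. No difference below has a replicate check, and none carries a test. Expression is given as CPM, a gene's reads scaled to 1e+06 gene reads in the pool or in the cell. Brackets hold exact 95% intervals, which reflect counting error only. The gates filled different rows of the plate, A to F for sst1.1+ ins+ cells and F to H for ins+ cells. Gate and row therefore cannot be told apart except in row F, which held 3 sst1.1+ ins+ and 9 ins+ cells. Of these 3 sst1.1+ ins+ cells, 2 had under 5% of their gene reads in ins, at 174 and 48460 CPM.

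The labels were checked first, on the genes of the sort. The EGFP row reached 1590 CPM in sst1.1+ ins+ cells, with 5 or more reads in 57 of 57 cells, and 300.4 CPM in ins+ cells, where 31 of 32 cells had 5 or more reads. With 5% of a cell's gene reads as the mark, 45 of the 57 sst1.1+ ins+ cells passed it for ins and for sst1.1, 10 passed it for ins only and 2 for sst1.1 only. All 32 ins+ cells passed it for ins only. Of the marker lists of other tissue cells, 3 were at or near 0 in both pools: the summed level was 21.6 and 15.7 CPM for 17 acinar genes, 1.28 and 0 CPM for 11 endothelial genes, and 1.24 and 0 CPM for 6 red blood cell genes, in sst1.1+ ins+ and ins+ cells. Leukocyte markers summed to 55.3 and 19.3 CPM, with 6 and 9 of 12 genes at 0, and fibroblast or stellate cell markers to 16.5 and 22.4 CPM, with 4 and 3 of 10 at 0. Duct cell markers were read at 355 and 217 CPM, with medians of 276 and 115 CPM per cell and 0 and 1 of 10 genes at 0. Neuron or glia markers summed to 215 and 214 CPM, with 4 and 7 of 10 at 0, and hepatocyte or enterocyte markers to 112 and 123 CPM, with 5 and 8 of 11 at 0. The part of these cell types in the results was not tested. Over 5% of reads in the other islet hormones sst1.2, sst2, gcga, gcgb and ghrl were found in 7 sst1.1+ ins+ cells and 3 ins+ cells. Reads of the 13 genes named mt- took a median of 2.73% and 2.80% per cell, and malat1, a nuclear noncoding RNA, 1.602% and 1.641%. The row AC024175.4, which has no gene symbol, was not counted with the mt- genes. Whether that row holds mitochondrial reads was not tested, so the mt- values need not be the whole mitochondrial share.

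Cells of the 2 gates differed in how many genes were read and in how many gene reads were obtained per spike-in read. The sst1.1+ ins+ cells had 2119 to 7726 detected genes with a median of 4999, and the ins+ cells 2004 to 5388 with a median of 2564. Thinned to 100000 reads, which left out 1 shallow sst1.1+ ins+ cell, the medians were 4202.5 and 2322.5. Each sst1.1+ ins+ cell gave 27.5 to 200.5 gene reads per spike-in read, with a median of 71.1, and each ins+ cell 16.6 to 78.1, with a median of 28.3. The ins+ cells of plate 4 had a median of 29.1 and the sst1.1+ cells of 41.8. Row medians of both measures were higher in every row of sst1.1+ ins+ cells than in every row of ins+ cells. Row medians of detected genes ran from 4688 to 5633.5 in the 6 rows of sst1.1+ ins+ cells and from 2562 to 2645 in the 3 rows of ins+ cells. Row F, the only row with cells of both gates, had 5568 and 2566. The spike-in ratio rises with the amount of cellular RNA and falls with the amount of spike-in added to a well, and which of these differed was not tested. Wells that received more than 1 cell were not looked for, and their part in both measures was not tested.

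**Figure D1:**
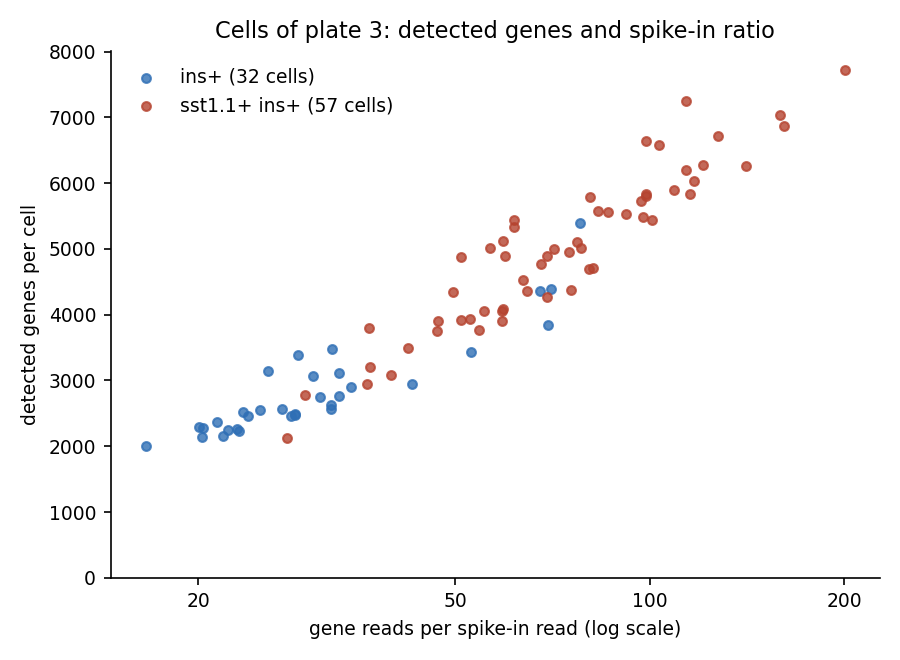
Detected genes per cell against gene reads per spike-in read (log scale), 1 point per kept cell of plate 3. The ins+ cells lie at the lower left around medians of 2564 genes and 28.3 reads, the sst1.1+ ins+ cells around 4999 genes and 71.1 reads, and the ranges of the gates overlap.

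Across all genes, the sst1.1+ ins+ pool had nearly as many genes above as below the ins+ pool by 2-fold. Of 1704 genes that reached 50 CPM in one of the pools, 112 (6.57%) were 2-fold or more higher in sst1.1+ ins+ cells and 105 (6.16%) were 2-fold or more lower, and the median log2 ratio was −0.08. Pools of 1 gate also differed between plates. For the ins+ gate, plate 4 stood 2-fold or more above plate 3 in 193 of 1868 genes (10.3%) and below in 78 (4.18%). Leaving out the cell with most reads of each gene in each pool of plate 3 kept all 112 higher genes (6.57%) and 73 of the lower ones (4.28%). It takes 1 of 57 cells from one pool and 1 of 32 from the other, and it moved the median log2 ratio of all genes from −0.08 to 0.00 and the count of higher genes to 167. In the median cell, 108 (6.34%) and 37 (2.17%) also differed 2-fold, where the ins+ median was 0 CPM for 353 of the 1704 genes and the sst1.1+ ins+ median for 29. These splits depend on the total that reads are scaled to. Scaled to reads outside hormone genes, 196 genes were higher and 323 lower, of 2930 that then reached 50 CPM against 1704. Per spike-in read, which multiplies every ratio by 2.30, 995 (58.4%) of the same 1704 were higher and 4 (0.235%) lower. With means of log2 levels over cells, 766 of the 1704 were higher and 17 lower.

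The distribution over cells was summarised for each gene by the share of pairs of 1 sst1.1+ ins+ and 1 ins+ cell in which the former had the higher CPM, with ties counted as equal parts to both. A gene with the same distribution in both gates has a share of 50%. The median over the 1704 genes was 55.6% (quartiles 49.2 and 62.8%), and 71.9% of genes lay above 50%. The background of this measure is therefore above 50%. With all cells thinned to 100000 reads the median share was 55.2%.

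**Figure D2:**
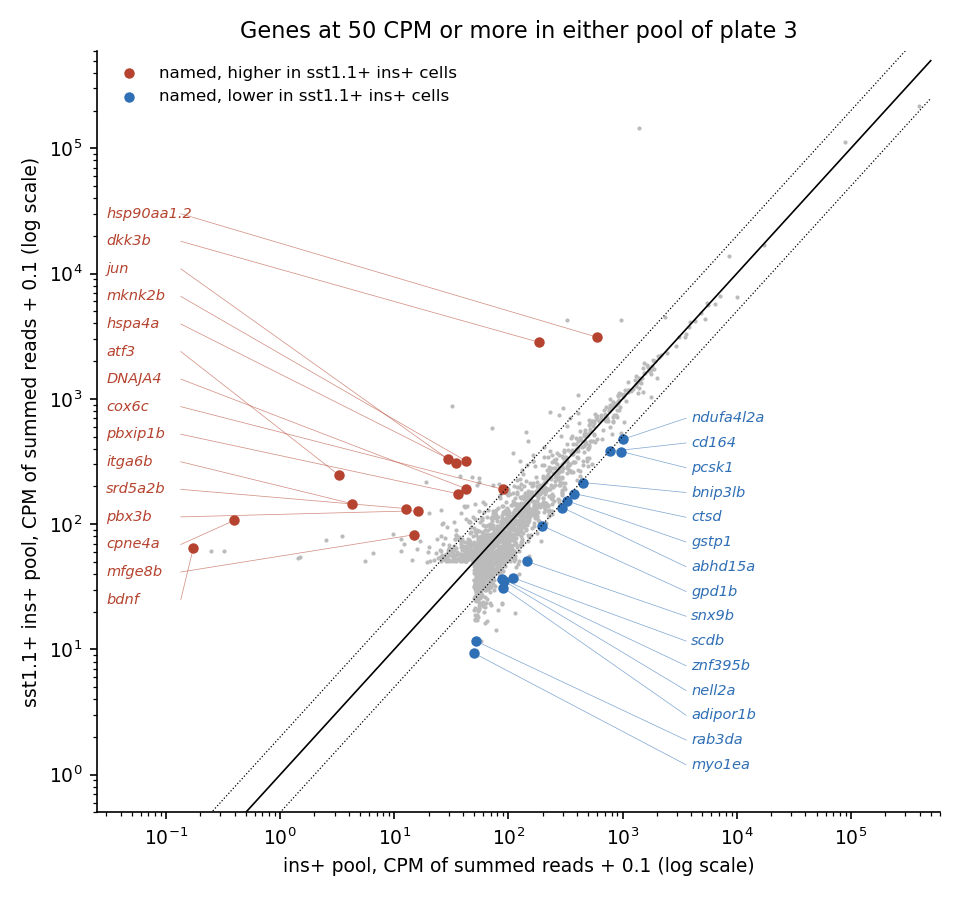
Summed CPM plus 0.1 in the sst1.1+ ins+ pool (vertical) against the ins+ pool (horizontal) of plate 3, both on log scales, for the 1704 genes that reached 50 CPM in one of them. The solid line marks equal levels and dotted lines 2-fold differences; red points are the 15 genes named as higher, from cox6c close to the 2-fold line to bdnf and cpne4a with 1 and 4 reads in the ins+ pool, and blue points are the 15 named as lower.

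The 15 genes named as higher have the largest pair shares among symbols that were at least 2-fold higher with and without the top cells, hormones left out, so their values are a description of how they were chosen. Several encode secreted or surface proteins. The gene dkk3b (ENSDARG00000070683), which encodes a secreted protein of the dickkopf family, had 2835 CPM in sst1.1+ ins+ cells and 184 CPM in ins+ cells when reads were summed, a ratio of 15.4 (14.8 to 16.1). Its level ran from 28.1 to 7911 CPM with a median of 2777 over the 57 sst1.1+ ins+ cells, and from 0 to 1579 CPM with a median of 69.3 over the 32 ins+ cells. The cells overlapped in range, but in 96.6% of pairs the sst1.1+ ins+ cell was higher. In each of the 6 rows of sst1.1+ ins+ cells dkk3b stood between 2207 and 5692 CPM, above the 71.9 to 243 CPM of the 3 ins+ rows.

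The neurotrophin gene bdnf was close to unread in ins+ cells. It had 1771 reads, 64.7 CPM, in sst1.1+ ins+ cells and 1 read in the ins+ pool, a ratio of 875 whose counting interval is wide (157 to 34584). Its median cell stood at 54.2 CPM, 14 of 57 sst1.1+ ins+ cells had none, and the highest had 401 CPM. The secreted glycoprotein gene mfge8b, whose product bridges phosphatidylserine and integrins, was at 82.3 against 14.9 CPM, with a median of 70.8 CPM per sst1.1+ ins+ cell and 0 in the median ins+ cell. The integrin subunit gene itga6b, part of a laminin receptor, was at 146 against 4.14 CPM. A single ins+ cell held 94.6% of its 56 ins+ reads; 30 of 32 ins+ cells had none, and 12 of 57 sst1.1+ ins+ cells had none. Without the top cell of each pool the ratio of itga6b moved from 35.2 to 602. The copine gene cpne4a, which encodes a calcium-dependent membrane-binding protein, had 107 CPM against 4 reads, a ratio of 362 (141 to 1328). The highest ins+ cell had 3.47 CPM of cpne4a, and the median sst1.1+ ins+ cell had 96.7 CPM.

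Transcription factors and their partners formed another group. The TALE homeobox gene pbx3b stood at 128 against 15.9 CPM, a ratio of 8.04 (7.001 to 9.267), with a pair share of 90.7%. Thinned to equal depth, 41 of 56 sst1.1+ ins+ cells and 3 of 32 ins+ cells had 5 or more reads of it. Its binding partner gene pbxip1b was at 174 against 36.3 CPM, with a median cell of 153 and 0 CPM. The stress-responsive bZIP factor genes atf3 and jun varied widely over cells. For atf3, the sst1.1+ ins+ cells ran from 0 to 1687 CPM around a median of 60.7, with 14 cells at 0, and the highest ins+ cell had 34.1 CPM. For jun, they ran from 0 to 1755 CPM around a median of 139.8, and 1 ins+ cell reached 427 CPM. The kinase gene mknk2b, which acts on a translation initiation factor downstream of MAP kinases, was at 319 against 42.3 CPM, with medians of 269 and 2.51 CPM per cell.

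Cytosolic chaperones and metabolic enzymes made up the rest. The gene hsp90aa1.2, encoding an inducible HSP90, stood at 3103 against 599.7 CPM, a ratio of 5.17 (5.06 to 5.29), and ran from 60.04 to 10410 CPM over sst1.1+ ins+ cells and from 4.3997 to 3373 CPM over ins+ cells. The genes hspa4a and DNAJA4, which encode partners of HSP70 in the folding cycle, were at 309.9 against 34.7 CPM and 192 against 42.4 CPM. The steroid reductase gene srd5a2b was at 133 against 12.6 CPM in the ins+ cells of its plate and 0.0797 CPM in those of plate 4. The cytochrome oxidase subunit gene cox6c had the smallest of the 15 ratios, 2.10 (1.98 to 2.24). It was read in nearly every cell, from 23.6 to 352 CPM in sst1.1+ ins+ cells and from 0 to 290.2 CPM in ins+ cells, with medians of 185 and 76.2 CPM and a pair share of 83.8%.

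**Figure D3:**
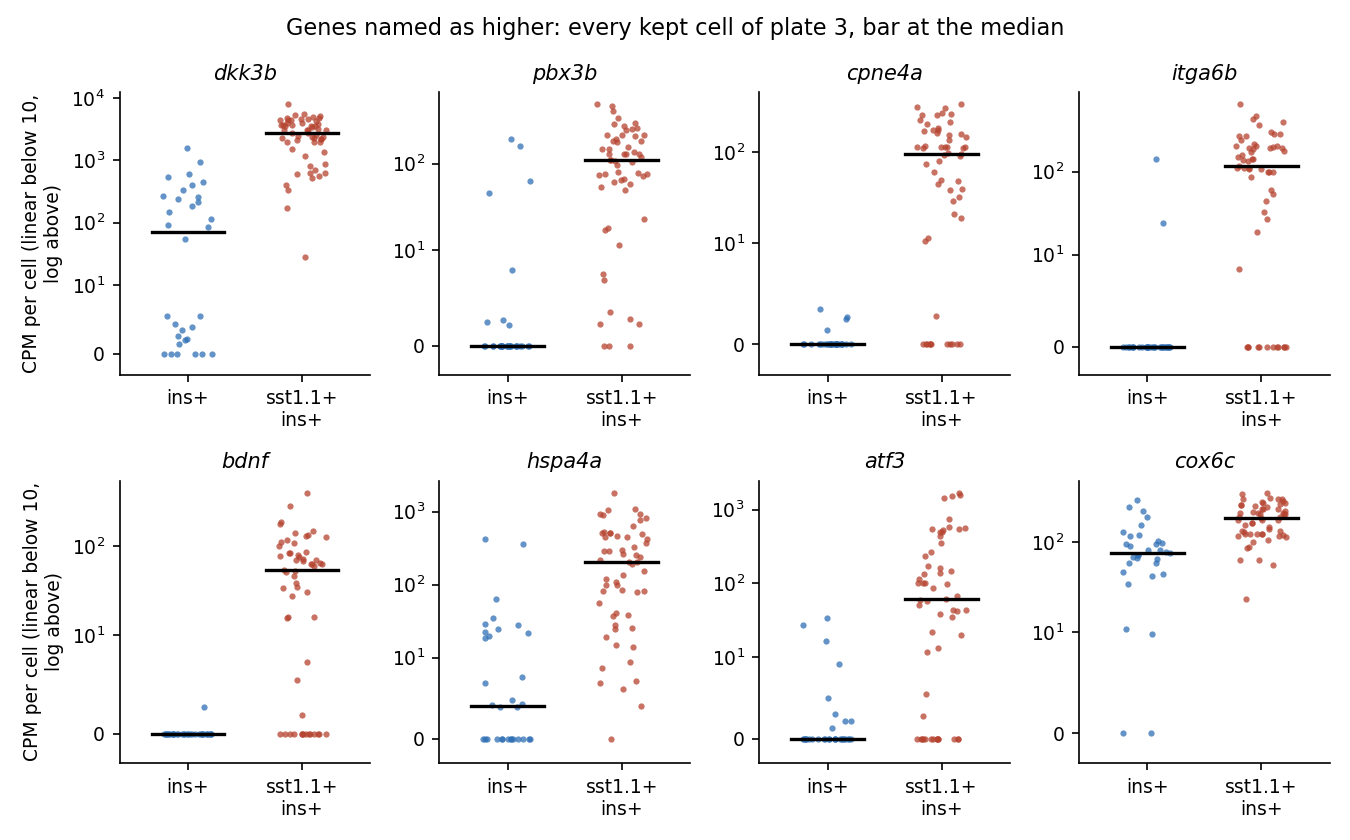
CPM in every kept cell of plate 3 for 8 of the genes named as higher, ins+ cells on the left and sst1.1+ ins+ cells on the right of each panel; the axis is linear below 10 CPM and logarithmic above, and the bar is the median cell. For cpne4a, bdnf and itga6b most ins+ cells sit at 0, whereas cox6c is present in nearly all cells of both gates and shifts from a median of 76.2 to 185 CPM.

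Most of the 15 genes were read in most sst1.1+ ins+ cells, which follows from how the genes were chosen. Whether they occur together beyond each gene's own share of cells was not tested. Thinned to 100000 reads, the sst1.1+ ins+ cells had 5 or more reads for 3 to 15 of the 15 genes, with a median of 12. The ins+ cells of plate 3 had them for 1 to 8, with a median of 3. On plate 4, whose cells had no part in the choice, the median was 3 per ins+ cell and 13 per sst1.1+ cell. On plate 3, every row of sst1.1+ ins+ cells lay above every ins+ row in 119 of the 1704 genes (6.98%). Of the 15 genes, 14 had this order, which follows in part from their choice on the same cells. The exception was DNAJA4, at 59.7 CPM in row C of the sst1.1+ ins+ cells and 60.85 CPM in row G of the ins+ cells. For 7 of the 15 genes the ins+ cell with most reads was 1 of the 3 that had over 5% of reads in other islet hormones.

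The 15 genes named as lower differed less and were read in both gates. The proprotein convertase gene pcsk1 (ENSDARG00000002600), whose product starts the processing of proinsulin, stood at 380 CPM (379.6) in sst1.1+ ins+ cells and 976 CPM in ins+ cells, a ratio of 0.389 (0.379 to 0.399). Over cells it ran from 18.1 to 1053 CPM around a median of 329 in sst1.1+ ins+ cells and from 235 to 2100.2 CPM around a median of 909.6 in ins+ cells. The sst1.1+ ins+ cell was the higher one in 14.1% of pairs. Every row of sst1.1+ ins+ cells, from 121 to 415 CPM, lay below every ins+ row, from 941 to 1005 CPM.

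Vesicle and lysosome genes were among the other lower genes. The vesicle GTPase gene rab3da was at 11.5 against 52.3 CPM, and 1 of 56 sst1.1+ ins+ cells against 14 of 32 ins+ cells had 5 or more reads of it after thinning. The ins+ cells of plate 4 had 19.04 CPM of rab3da, closer to the sst1.1+ ins+ pool. The same held for myo1ea, a class I myosin gene, at 9.20 and 50.2 CPM on plate 3 and 13.5 CPM in ins+ cells of plate 4. The sialomucin gene cd164, the lysosomal protease gene ctsd and the endocytic sorting nexin gene snx9b had ratios of 0.488, 0.471 and 0.348. For these 3 genes the ins+ cells of plate 4, at 820 (819.8), 308 and 163 CPM, also lay above the sst1.1+ ins+ pool, at 381, 175 and 50.4 CPM.

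Genes of lipid and energy metabolism followed. The gene ndufa4l2a, a relative of a respiratory chain subunit that responds to hypoxia in mammals, was at 475 against 1002 CPM, with a pair share of 14.9%. It was read in every cell of both gates, with medians of 437 and 965 CPM. The fatty acid desaturase gene scdb stood at 37.104 against 110.4 CPM, the adiponectin receptor gene adipor1b at 30.97 against 90.02 CPM, and the glycerol phosphate dehydrogenase gene gpd1b at 97.1 against 197 CPM. The hydrolase-fold gene abhd15a was at 136 against 296 CPM, with 6.08 CPM in sst1.1+ cells. The glutathione transferase gene gstp1, the mitophagy receptor gene bnip3lb, the secreted glycoprotein gene nell2a and the zinc finger gene znf395b completed the set, with ratios of 0.467, 0.476, 0.378 and 0.412. Every row of sst1.1+ ins+ cells lay below every ins+ row in 135 of the 1704 genes (7.92%). Of the 15 genes, 12 had this order, which follows in part from their choice on the same cells. The exceptions were myo1ea, scdb and gpd1b.

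**Figure D4:**
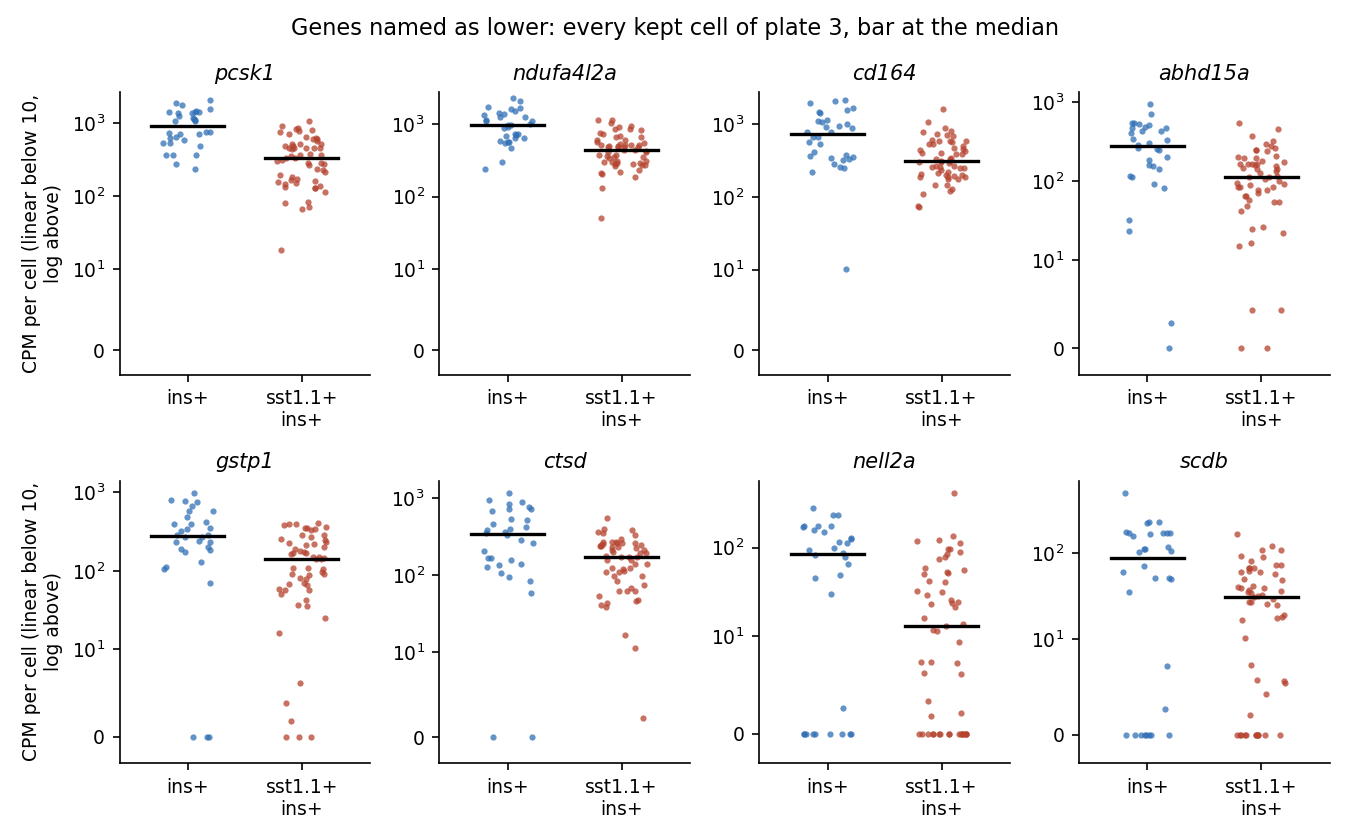
CPM in every kept cell of plate 3 for 8 of the genes named as lower, laid out as in the plot of higher genes. The distributions overlap: pcsk1 has medians of 909.6 CPM in ins+ and 329 CPM in sst1.1+ ins+ cells, and each gene is read in cells of both gates.

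For some of the 15 lower genes the direction rests on levels as a share of each cell's reads. Per spike-in read, 8 of the 15 lower genes kept their direction and pcsk1 stood at 0.896. On that scale 1 gene, myo1ea, stayed past 2-fold with a ratio of 0.423. That call rests on 1 plate row: row H of the ins+ cells had 95.7 CPM of myo1ea, against 14.7 and 20.1 CPM in the other ins+ rows. As a share of reads its ratio of 0.183 ranged from 0.133 to 0.522 with 1 row left out, and without row H it was no longer past 2-fold. All 15 higher genes kept their direction and stayed past 2-fold on that scale, with cox6c at 4.84. That was fixed in advance, since the scale multiplies ratios chosen at 2 or more by 2.30. Thinned to 100000 reads, the median number of the 15 lower genes with 5 or more reads was 9 per sst1.1+ ins+ cell and 11 per ins+ cell.

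The hormones were given by the gate and are listed as levels. Summed reads of ins came to 216853 CPM in sst1.1+ ins+ cells and 397976 CPM in ins+ cells, and from 174 to 415809 and from 172152 to 507961 CPM over cells. In 9.10% of pairs the sst1.1+ ins+ cell had more ins. The ratio of ins was 0.545 as a share of reads and 1.26 per spike-in read. Reads of sst1.1 came to 144406 against 1389 CPM in the pools, and ran from 939.9 to 383405 CPM over sst1.1+ ins+ cells. Over ins+ cells sst1.1 ran from 0 to 29339 CPM, and 1 cell held 58.3% of its ins+ reads. The summed share of ins and sst1.1 was similar, with a median of 377751 CPM per sst1.1+ ins+ cell and 406379 CPM per ins+ cell.

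Among hormones outside the gate, sst1.2 and pyyb differed over most cells, though reads of sst1.2 can be hard to tell from those of sst1.1. A median of 5412 CPM of sst1.2 was found in sst1.1+ ins+ cells and of 25.7 CPM in ins+ cells, and 56 of 56 thinned cells against 8 of 32 had 5 or more reads. The pools differed less, at 13748 and 8582 CPM, and 1 ins+ cell held 60.2% of the ins+ reads of sst1.2. Without the top cells the ratio was 3.13 in place of 1.602. For sst2 the pools had 4324 and 5281 CPM, and the top cell held 56.4 and 55.5% of the reads. The peptide YY gene pyyb stood at 582 against 72.3 CPM, with a pair share of 93.1% and 5 or more reads in 53 of 56 and 8 of 32 thinned cells. Its row values, 365 to 828 CPM, lay above the 27.5 to 121 CPM of ins+ rows. The glucagon gene gcga gave a pool ratio of 1.95 with a pair share of 46.7%: the pool and the cells went in different directions, and the top cell held 28.6 and 77.03% of the reads. Its paralog gcgb stood at 4295 against 323 CPM, a ratio of 13.3, or 28.8 without the top cells. Its pair share was 60.8%, 25 of 56 and 10 of 32 thinned cells had 5 or more reads, and the top cell held 39.2 and 72.2% of the reads. The ghrelin gene ghrl and the incretin gene gip stood lower, at 58.5 against 95.2 CPM and 16.7 against 30.8 CPM, with pair shares of 14.8 and 17.1%. Per spike-in read their ratios were 1.42 and 1.24.

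Function lists besides the hormones were counted for members that reached 10 CPM in one of the pools. Of all 6824 genes at that level, 949 (13.9%) were 2-fold or more higher and 962 (14.1%) lower, with a median log2 ratio of −0.08. Log2 ratios of lists are those of CPM plus 1, which understates differences of low genes. Per spike-in read every list median was above 0, from 0.80 for hormone and nutrient receptors to 2.96 for the cell cycle. A list median below 0 in what follows is therefore a lower share of reads only. Single members can be lower on both scales.

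**Figure D5:**
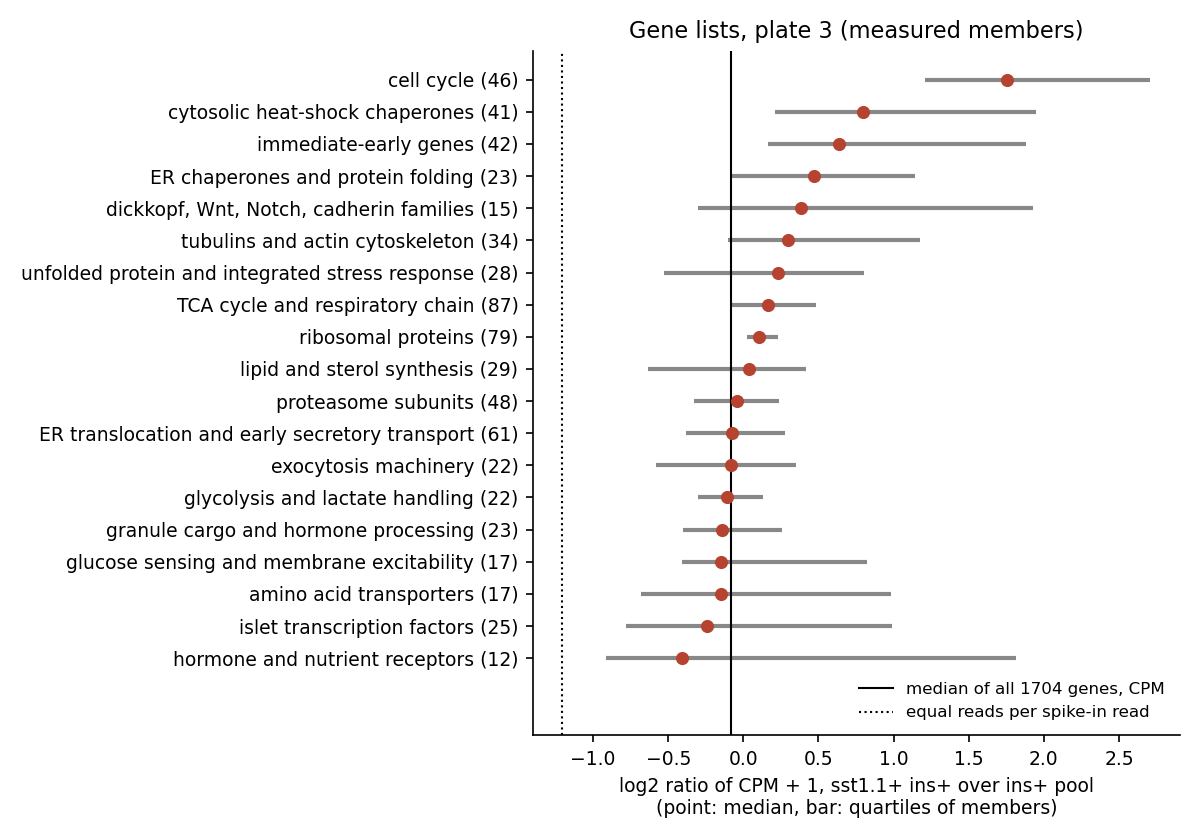
Median (point) and quartiles (bar) of the log2 ratio of CPM plus 1, sst1.1+ ins+ over ins+ pool, for the measured members of each gene list but the hormones, with their number in brackets. The solid line is the median of the 1704 genes, −0.08, and the dotted line the value at which a gene has equal reads per spike-in read, −1.20; cytosolic heat-shock chaperones at 0.80, immediate-early genes at 0.64 and cell cycle genes at 1.75 lie furthest to the right.

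Cytosolic heat-shock chaperones stood higher as a group. Of 41 measured members 18 were 2-fold or more higher and none lower, and the median was 0.80. The summed list had 4116 to 63213 CPM per sst1.1+ ins+ cell with a median of 16119, and 2986 to 27366 CPM per ins+ cell with a median of 6144. In 81.25% of pairs the sst1.1+ ins+ cell had the higher sum. By reads, hsp70l led with 4262 against 971 CPM, and reads of this gene are uncertain between it and its close copies hsp70.1, hsp70.2 and hsp70.3. The co-chaperone genes bag3 and hsph1 were at 240.3 against 37.8 CPM and 76.1 against 11.5 CPM. Of the mitochondrial and other folding factors in the list, hspa9 stood at 77.5 against 116 CPM and the chaperonin subunit gene cct5 at 64.6 against 84.3 CPM. Over cells these 2 genes had medians of 66.2 and 70.9 CPM per sst1.1+ ins+ cell and both 0 per ins+ cell. An ins+ median of 0 CPM was found for 353 of the 1704 genes. The pair shares of hspa9 and cct5 were 64.4 and 58.9%, where all 1704 genes had a median of 55.6% and an upper quartile of 62.8%. The top ins+ cell of hspa9 and of cct5 held 29.3 and 24.8% of the ins+ reads.

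Immediate-early genes, which are switched on within minutes of stimulation or tissue dissociation, had 18 of 42 members 2-fold or more higher and 1 lower, with a median of 0.64. The anti-apoptotic gene mcl1a held the most reads, at 778 against 229 CPM, and jund stood at 86.4 against 15.003 CPM. The phosphatase gene dusp2 went the other way, at 177 against 354 CPM, as did the mRNA decay factor gene zfp36l1b at 303 against 537 CPM. The summed list had medians of 5543 and 3295 CPM per cell. The sst1.1+ cells of plate 4 had 10545 CPM of this list and 31512 CPM of the heat-shock list, against 4120.5 and 7237 CPM in the ins+ cells of that plate. Of the 112 genes that were 2-fold higher, 30 (26.8%) belonged to the heat-shock, immediate-early, chaperone or stress-response lists, as did 79 of the 1704 genes (4.64%), and the part of dissociation in them was not tested.

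In the endoplasmic reticulum, chaperones and stress-response genes were more often higher than lower, and few genes of import and transport differed 2-fold. Of 23 ER chaperones and folding enzymes 7 were higher and 1 lower, with a median of 0.47. The main ER chaperone gene hspa5 stood at 851 against 299 CPM, its partner hsp90b1 at 357 against 165 CPM and the disulfide isomerase gene pdia4 at 59.6 against 19.5 CPM, and the calcium-binding chaperone gene calr at 104 against 148 CPM. Of 28 genes of the unfolded protein and integrated stress responses 7 were higher and 4 lower, with a median of 0.23. The ER degradation gene herpud1 was at 53.5 against 1.33 CPM (18 reads, all from 1 ins+ cell), the phosphatase subunit gene ppp1r15a at 233 against 54.6 CPM and the stress factor gene ddit3 at 94.2 against 29.05 CPM. Lower members were vldlr, a lipoprotein receptor gene, at 48.1 against 121 CPM, and cebpd, a bZIP factor gene, at 121 against 243 CPM. Also lower was nupr1, at 22.2 against 54.8 CPM, with 99.9% of its ins+ reads in 1 cell. For ER translocation and early secretory transport, 2 of 61 members were higher and 2 lower, with a median of −0.08, and the signal peptidase subunit gene spcs3 at 125 against 60.5 CPM was among the higher.

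Secretory granule genes were near parity apart from a few members. Of 23 granule cargo and processing genes 2 were higher, 1 lower and 20 within 2-fold, with a median of −0.14. The granins differed among themselves: chga stood at 320.4 against 125 CPM with a pair share of 81.9%, scg2b at 775 against 407 CPM, and scg3, which held the most reads, at 5665 against 6505 CPM. For the second convertase gene pcsk2, the level was 339 against 507 CPM, and every sst1.1+ ins+ row lay below every ins+ row. In the exocytosis machinery 2 of 22 genes were higher and 2 lower, with a median of −0.08; the calcium sensor gene syt4 was at 60.99 against 25.8 CPM and the release scaffold gene rims2a at 722 against 888 CPM.

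Islet transcription factors and glucose-sensing genes split in both directions. Of 25 islet transcription factors 7 were higher and 3 lower, with a median of −0.24. The homeobox gene pdx1, needed for beta cells, stood at 1120 CPM (1119.8) against 1358 CPM, with a pair share of 44.2%. Among members at 50 CPM or more, the lowest ratios were those of isl1, nkx2.2a and mnx1, at 0.540, 0.517 and 0.544, all within 2-fold. For these 3 factors of beta and endocrine cells, every sst1.1+ ins+ row lay below every ins+ row. Per spike-in read these ratios were 1.24, 1.19 and 1.25. The forkhead gene foxa2 was at 55.5 against 27.4 CPM, a ratio of 2.02, or 3.97 without the top cells. A single ins+ cell held 53.1% of its ins+ reads. Its ins+ rows F, G and H stood at 0.278, 0.233 and 65.4 CPM, beside 43.1 to 70.9 CPM in sst1.1+ ins+ rows. The ETS factor gene elf3 was at 61.1 CPM against 3 reads, a ratio of 276 (94.1 to 1338). Cells differed widely for elf3: 10 of 56 sst1.1+ ins+ cells had 5 or more reads after thinning, and row D stood at 212 CPM while row F had none. In the list of glucose sensing and membrane excitability 4 of 17 genes were higher and 1 lower, with a median of −0.15. The glucose sensor gene gck was at 701 against 647 CPM, the sodium pump subunit gene atp1b1a at 205 against 73.5 CPM, the glucose phosphatase gene g6pcb at 231 against 442 CPM and the pyruvate carboxylase gene pcxb at 213 against 315 CPM.

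Receptors and transporters held members on either side. Of 12 hormone and nutrient receptors 4 were higher and 3 lower, with a median of −0.41. The prolactin receptor gene prlra was at 316 against 325 CPM, and the histamine receptor gene HRH2 at 40.03 against 123.5 CPM, though its pair share was 45.1% and its median cells stood at 21.6 and 24.1 CPM. Of 17 amino acid transporters 5 were higher and 3 lower, with a median of −0.15. The neutral amino acid transporter gene slc38a2, which responds to amino acid shortage, was at 122 against 20.1 CPM, its relative slc38a11 at 45.2 against 115 CPM and slc1a4, with the most reads, at 965 against 1071 CPM.

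Energy metabolism stood near the median of all genes. Of 87 genes of the TCA cycle and respiratory chain 4 were higher and 4 lower, with a median of 0.17. The complex III subunit gene uqcrq was at 68.8 against 26.5 CPM and the pyruvate dehydrogenase subunit gene dlat at 29.9 against 62.7 CPM. Of 22 glycolysis genes 2 were higher and 1 lower, with a median of −0.11: gapdhs, with the most reads, stood at 1215 against 1406 CPM, and pgk1 at 93.2 against 49.4 CPM. The lower member was pdk2b, a kinase gene that restrains pyruvate entry into mitochondria, at 19.6 against 114 CPM, but its pair share was 41.9% and both median cells had 0 CPM. Of 29 genes of lipid and sterol synthesis 3 were higher and 6 lower, with a median of 0.03. None of 79 ribosomal protein genes differed 2-fold, with a median of 0.10, and the summed list had medians of 88494 and 83646 CPM per cell. Of 48 proteasome genes 4 were higher and none lower, with a median of −0.04.

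Cell cycle genes had the highest list median, 1.75, with 37 of 46 measured members 2-fold or more higher and 1 lower. Few cells held a large part of their reads. The 3 cells with most reads held 33.8% of the list's reads in the sst1.1+ ins+ pool and 59.22% in the ins+ pool. The summed list ran from 143 to 15134 CPM over sst1.1+ ins+ cells with a median of 623 and an upper quartile of 1872. Over ins+ cells it ran from 45.3 to 8048 CPM, with a median of 363 and an upper quartile of 550. In 74.1% of pairs the sst1.1+ ins+ cell had the higher sum. The topoisomerase gene top2a stood at 50.3 against 5.47 CPM, with 5 or more reads in 8 of 56 and 1 of 32 thinned cells, and the chromatin protein gene hmgn2 at 464 against 148 CPM. The ins+ cells of plate 4 had 2157 CPM of the list, near the 2208 CPM of sst1.1+ ins+ cells and above the 809.96 CPM of ins+ cells on plate 3. In row F the list went the other way, with a median of −3.30 relative to all genes. Tubulin and actin genes had 11 of 34 members higher and 2 lower, with a median of 0.30. The tubulin gene tuba8l, at 215 against 18.9 CPM, had 31.4 and 67.6% of its reads in 1 cell of each pool, and the actin gene actb2 was at 919 against 904 CPM.

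Among secreted and adhesion proteins of the dickkopf, Wnt, Notch and cadherin families 6 of 15 measured genes were higher and 1 lower, with a median of 0.39. The sum of the list, of which dkk3b made up most in sst1.1+ ins+ cells, was higher in the sst1.1+ ins+ cell in 93.4% of pairs. The neurexin gene nrxn1a was at 54.8 against 41.7 CPM, with a pair share of 70.6%, and the ephrin receptor gene epha4a at 44.04 against 74.0 CPM.

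Values of the other gates were set beside these differences. Of the 112 higher genes, 68 were also 2-fold or more above the ins+ cells of plate 4, and of the 105 lower genes 47 were 2-fold or more below them. Of all 1704 genes, 6.81% were 2-fold above and 6.69% below the ins+ cells of plate 4, and both comparisons share the sst1.1+ ins+ pool. Between the ins+ pools themselves, 193 of 1868 genes (10.3%) were 2-fold or more higher on plate 4 and 78 (4.18%) lower. On plate 4, which has no cell in common with the comparison of plate 3, 83 of the 112 higher genes (74.1%) were 2-fold or more higher in sst1.1+ than in ins+ cells, against 11.4% of all 1704 genes. Of the 105 lower genes, 48 (45.7%) were 2-fold or more lower in sst1.1+ cells, against 10.3% of all. In 91 of the 112 higher genes (81.25%) the level in sst1.1+ cells exceeded that of the sst1.1+ ins+ pool, against 62.8% of all 1704 genes, and in 52 of the 105 lower genes (49.5%) it lay below that pool, against 37.2% of all. Among the higher genes this held for dkk3b at 5842 CPM, cpne4a at 245 CPM, itga6b at 353 CPM, atf3 at 880.1 CPM and jun at 1063 CPM. The sst1.1+ and sst1.1+ ins+ gates share no plate, so gate and plate cannot be told apart between them. These levels are shares of reads, and the pools gave 36.7 (sst1.1+) and 68.5 (sst1.1+ ins+) gene reads per spike-in read.

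A level at least 2-fold above each of the other pools was found for 2 genes with a symbol, and for 1 of them, kpna2, without the sst1.1+ ins+ cell with most of its reads. The importin gene kpna2, which serves nuclear import and is abundant in dividing cells, stood at 58.2 CPM against 6.36 and 3.98 CPM in ins+ cells of plates 3 and 4 and 6.79 CPM in sst1.1+ cells. It was read in few cells: 5 of 56 thinned sst1.1+ ins+ cells had 5 or more reads, and rows C and E, at 179 and 92.03 CPM, held most of them.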

How the data were processed

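The authors deposited 1 table of raw counts, reads per gene and cell with no normalization. Per the submitters' processing notes, reads were handled with Trim Galore, HISAT2 and featureCounts on GRCz11. For tool versions, annotation release, strand setting and doublets, the sources used here give nothing. All 186 cell columns matched a sample by its description (0 unmapped columns, 0 identical pairs), and reading the number in a title as the plate is an interpretation. The 92 spike-in rows, 5.61% of all reads, stayed out of totals. The row AC024175.4 held a median share of 11.0% (double gate) and 9.02% (ins+) of gene reads per cell. It stayed in totals and, having no gene symbol, is not named as a result.

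The counts were summed per gate in Python 3.11.15 with numpy 2.4.6, scipy 1.17.1 and pandas 2.3.3. Pool ratios carry exact conditional binomial intervals at 95%. These cover counting error of reads only and leave out variation between cells. They treat reads as independent, though without molecular identifiers PCR copies cannot be told from separate molecules. Cells were thinned without replacement to 100000 reads for shares of cells. No doublet caller was run on the sorted wells. TMM factors came from edgeR 4.0.16 in R 4.3.3. Code was tested on simulated data. No sequence or coordinate was used.

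The cells, gene lists and alternatives were chosen with earlier results of these data known. The naming rule took the 15 highest and 15 lowest pair shares among symbols outside the hormone list, at 50 CPM or more in the higher pool and past 2-fold with and without the top cell of each pool. From each list it took the member with most reads and up to 3 with the highest and 3 with the lowest ratio at 50 CPM or more. It also took genes 2-fold above each other pool. Of the listed function symbols, 948 matched by name, 25 via the reference symbols of gene IDs, and 17 when case was ignored, 5 fell on a row already matched, and 60 were not found. Of marker symbols 105 matched and 6 were not found.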

Additional observations from a re-analysis of the deposited data

How the results depend on the processing

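No paired analysis was possible because each gate of plate 3 is 1 pool and the numbers given to its cells pair nothing. With a total without hormone reads, the 112 higher and 105 lower of 1704 genes became 196 and 323 of 2930. Over the same 1704 they became 995 and 4 per spike-in read, and 766 and 17 with log2 levels averaged over cells. Row F alone gave 376 and 691 of 2075 genes, and a floor of 10 CPM 949 and 962 of 6824. No filter on low values gave 8128 and 3207 of 19229. The median log2 ratio of all genes was −0.19, 1.12, 0.86, −0.36, −0.08 and 0.15 in these settings. Against the ins+ cells of plate 4, 105 of 1830 genes were higher and 244 lower. Of these, 68 and 41 were shared with the calls of plate 3. Of the 47 lower genes that were 2-fold below plate 4, 6 did not reach 50 CPM in that comparison. Leaving out 1 row at a time gave 110 to 142 higher and 99 to 172 lower genes, with 172 when ins+ row G was left out. TMM factors gave 127 and 80, thinned cells 126 and 116, the double-hormone cells alone 133 and 115, and cells with at most 5% other hormones 144 and 120. The latter count was also taken with ins+ cells alone filtered, and a total without AC024175.4 was tried, both chosen after seeing the data. They gave 138 and 123 of 1717 genes, and 145 and 111 of 1924.

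All 15 higher genes kept their direction under each alternative run, and 14 or 15 stayed past 2-fold. Without the top cells and per spike-in read this was fixed by the rule that chose them. The other settings reuse cells on which they were chosen. Of the 15 lower genes, those still past 2-fold were 10 against ins+ cells of plate 4 and with averaged log2 levels, 11 without row F or G, 12 without row H, in row F alone and against both ins+ plates, and 1 per spike-in read. Per spike-in read the ratio reversed for ndufa4l2a (1.09), cd164 (1.12), abhd15a (1.05), gstp1 (1.08), bnip3lb (1.097), ctsd (1.08) and gpd1b (1.14), since that scale multiplies every ratio by 2.30. In row F alone it reversed for scdb (1.09) and gpd1b (2.68), and the cause was not tested. There 3 sst1.1+ ins+ cells enter, 2 of them with under 5% of their gene reads in ins.

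List medians relative to the median of all genes moved as follows, and the cause was not tested. In row F, islet transcription factors went from −0.16 to 0.48, immediate-early genes from 0.72 to 1.49, the dickkopf list from 0.47 to 2.10 and the cell cycle from 1.83 to −3.30. Against ins+ cells of plate 4, receptors went from −0.32 to 0.36, the dickkopf list to −0.30 and the cell cycle to 0.33. Immediate-early genes stood at 1.31 without ins+ cells over 5% other hormones, and ribosomal proteins went from 0.19 to −0.74 with averaged log2 levels. The cell cycle list stood at 0.10 with averaged log2 levels, 2.92 without the top cell of each gene, 0.81 against both ins+ plates, 1.05 to 3.61 leaving out 1 row, and 3.59 without its 3 leading cells in each pool (chosen after seeing the data). Another 498 alternative values of list medians lay within 0.58 of the main ones on the log2 scale.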

Other observations

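Some differences past 2-fold fell outside the rule for naming and were picked after their values were seen. The nociceptin precursor gene pnoca stood at 873 CPM in sst1.1+ ins+ cells and 31.6 CPM in ins+ cells of plate 3, but at 543 CPM in ins+ cells of plate 4 and 2674 CPM in sst1.1+ cells. Its pair share on plate 3 was 80.4%. The ETS factor gene etv5a was at 82.8 against 9.68 CPM, with 39.1 CPM in ins+ cells of plate 4. The tyrosine sulfotransferase gene tpst1 was at 80.9 against 3.40 CPM, and the adhesion gene flrt3 at 54.2 against 1.40 CPM, with 9.32 and 15.9 CPM in ins+ cells of plate 4. For tpst1 and flrt3 the ratios went from 23.8 to 329 and from 38.6 to 670.3 without the top cell of each pool.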
